A study of Arabidopsis thaliana with 40 samples.

Results

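Glucosinolates are sulfur-containing defence compounds of *Arabidopsis* and its relatives, made from chain-elongated methionine (aliphatic branch) or tryptophan (indolic branch). The amino acid is first turned into an aldoxime by a CYP79 enzyme, then passes through a CYP83 enzyme, a glutathione conjugation, a cleavage of the conjugate, a C-S lyase, a glucosyltransferase and a sulfotransferase, and R2R3 MYB factors control each branch. When tissue is damaged, myrosinases cleave the glucosinolates into toxic products. The genes described here are 43 nuclear genes of this pathway, of 33323 nuclear gene IDs (33602 IDs in all) in the RNA-seq count data. They are listed by their known place in the pathway, though the list was drawn up with earlier results of these data known. They comprise 6 MYB regulators, 9 chain elongation genes, 8 genes of the aliphatic core, 6 of the indolic core, 3 core genes shared by both branches, 7 genes of side chain modification and 4 genes of glucosinolate breakdown.

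RNA was sequenced from seedlings of 4 genotypes with 3 libraries each, described as biological replicates. All are in the Col-0 background: wt, *ubp12* (allele *ubp12-1*, a T-DNA insertion), *ubp13* (allele *ubp13-3*, also a T-DNA insertion) and the double mutant *ubp12/13* that carries both. UBP12 and UBP13 are related deubiquitinases that remove ubiquitin from histone H2A. Each mutant is represented by 1 allele per gene, and because the double mutant is sterile, the line was kept heterozygous for *ubp13-3* and homozygotes were found by genotyping. The plants were grown for 15 days on medium without further treatment and harvested 6 to 8 h after lights came on. The paper calls *ubp13-3* a weak allele and states that plants fully lacking both genes are not viable. The *ubp12/13* plants therefore do not stand for a complete loss of both proteases. The comparisons ask how each mutation, and both together, changed the RNA levels of the pathway. Peaks of H2Aub1 increase (monoubiquitinated histone H2A) in *ubp12/13* against wt come from rosette leaves of older plants of the same alleles.

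Counts on nuclear genes ranged from 6545534 to 15225396 per library, and counts of replicate libraries differed by more than sampling noise in each pair (chi-square per degree of freedom 5.60 to 19.2). Organellar genes took 6.15% of the counts in wt replicate 3 and 0.268% to 1.52% in the other libraries. *UBP12* had 99.2 ± 2.61 CPM (the count scaled to a common library size after TMM normalization, SD, n = 3) in wt, 25.7 ± 2.19 CPM in *ubp12* and 32.4 ± 4.81 CPM in *ubp12/13*. *UBP13*, by contrast, had 63.3 ± 0.779 CPM in wt, 158 ± 11.6 CPM in the libraries labelled *ubp13* and 78.9 ± 1.68 CPM in *ubp12/13*. A count over the whole gene does not show on which side of the insertion the reads lie, so that *UBP13* gives no check of that label, and in what follows *ubp13* stands for the libraries labelled *ubp13*, with directions that rest on this label alone. The tissue is labelled whole seedlings, and the 8 root markers summed to 105.6 to 201.6 CPM in the libraries, nearly all of it *PYK10*, without which the sum was 0.584 to 3.20 CPM. Of these markers *COBL9*, *EXPA7*, *EXPA18* and *MRN1* were at or near 0 CPM, and of the 3 that were tested in *ubp12/13* against wt, *CASP1* was called higher (log2FC 4.04 ± 0.54, adjusted p = 0.000950), *CASP2* lower (-1.22 ± 0.33, adjusted p = 0.0227) and *PYK10* did not pass (-0.06 ± 0.15, adjusted p = 0.787). The sum without *PYK10* was 1.31 to 2.04 CPM in wt and 2.00 to 2.34 CPM in *ubp12/13*. The log2FC of *CASP1* and *CASP2* thus rest on low counts, and their size is uncertain. Summed levels of the 4 leaf mesophyll markers were 32848 to 38475 CPM in *ubp12/13* and 42233 to 57791 CPM in the other libraries. These 4 markers did not move alike in *ubp12/13* against wt. The log2FC was below 0 for 3, of which 2 passed the adjusted p, and 0.04 for the other, with a median of -0.31. In bulk RNA, fewer cells of a type and less RNA per cell cannot be told apart.

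The members took 0.408% to 0.562% of the nuclear counts of a library. Of the 43 genes, 41 passed the filter for testing (CPM over 1 in at least 2 libraries of the comparison), among them some low genes that reached it only in some genotypes. *MYB122* had 1 count in 1 *ubp12/13* library and 0 in the other libraries, and *AOP3*, whose product makes hydroxyalkyl glucosinolates, had 0 counts in every library. Compared per kilobase of exon, the wt level was highest for the myrosinase gene *TGG1* (1239 CPM per kb), followed by *TGG2* (372), *GSTF9* (253) and *GSTU20* (112), and lowest among the tested members for *FMO-GS-OX4* (1.34) and *MYB76* (1.06). *TGG1* and *TGG2* together held 59.9% to 67.8% of all member counts in the wt, *ubp12* and *ubp13* libraries, and 40.1% to 44.7% in the *ubp12/13* libraries. The ranges of that share do not overlap.

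Many members sit beside a relative on the chromosome. *FMO-GS-OX2*, *FMO-GS-OX3* and *FMO-GS-OX4* lie in a row on chromosome 1, with gaps of 4005 and 5885 bp. *CYP79F2* and *CYP79F1* are 1183 bp apart on the same chromosome, *MAM1* and *MAM3* 11144 bp apart on chromosome 5, and *TGG2* and *TGG1* 3674 bp apart on chromosome 5. Counts of relatives could mix, or reads that they share could be lost to the mapping quality minimum. For this reason the share of 50-base words (the read length) of each member's exons that occur elsewhere in the genome was measured. It was highest for *IPMDH1* at 7.84%, 3.70% for *ESP*, 2.89% for *CYP79F2* and 1.70% for *CYP79F1*, 0.288% or less for the *FMO-GS-OX* genes, 0.455% for *TGG1*, 0.430% for *TGG2* and 0 for *MAM3*. *GSTF11* overlaps an antisense gene over its whole length (1096 bp) and *BCAT4* over 307 bp, and since the library kit does not mark strand, reads of such overlaps cannot be told apart.

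Printed first are upstream sequences of CYP79B2 and CYP79B3, because both genes rose in *ubp12/13* against wt. The rise of *CYP79B3* did not pass the test in each alternative fit, as given below. The products of both genes, which are close relatives, convert tryptophan to indole-3-acetaldoxime, the entry step of the indolic branch. Each sequence is the 250 bases before the annotated gene start, 5′ to 3′ on the coding strand, from the RefSeq TAIR10.1 genome. CYP79B2 is at chr4:18524792-18525041 on the plus strand, and CYP79B3 at chr2:9488163-9488412 on the plus strand. Capitals mark exact runs of 12 or more bases that both sequences hold.
CYP79B2: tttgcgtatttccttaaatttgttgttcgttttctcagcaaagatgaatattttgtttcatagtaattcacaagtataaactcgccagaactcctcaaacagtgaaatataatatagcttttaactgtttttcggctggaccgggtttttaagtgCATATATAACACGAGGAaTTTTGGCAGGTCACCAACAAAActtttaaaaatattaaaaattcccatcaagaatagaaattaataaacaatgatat
CYP79B3: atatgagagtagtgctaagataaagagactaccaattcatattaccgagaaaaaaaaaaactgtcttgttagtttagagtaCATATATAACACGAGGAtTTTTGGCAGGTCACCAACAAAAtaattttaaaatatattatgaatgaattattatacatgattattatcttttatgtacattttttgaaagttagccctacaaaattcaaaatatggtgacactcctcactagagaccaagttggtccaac

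The runs of 17 and 22 bases are separated by 1 differing base and lie from 95 to 56 bases before the start of *CYP79B2* and from 169 to 130 bases before that of *CYP79B3*. Of 27443 protein-coding genes with such a window, 2 hold the longer run on either strand, and these are *CYP79B2* and *CYP79B3* themselves. Among the other pairs of the 6 indolic core genes, the longest run shared by the 250 bases ranged from 7 to 11 bases. This comparison was chosen after the sequences had been seen and is a description of the 2 related promoters.

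Of the 41 tested members, 2 were called higher and 3 lower in *ubp12/13* than in wt, where a call needs both an adjusted p under 0.05 and a log2FC of 1 or more in size. Over all 17916 genes tested, 5.94% were called higher and 4.02% lower. Without the fold minimum, 10 members passed the adjusted p upwards and 9 downwards, beside 16.0% and 15.1% of all genes. All 3 *ubp12/13* libraries lay above all wt libraries for 10 members and below them for 13, and the shares over all genes were 23.6% and 23.0%. The median log2FC of the members was -0.09, that of all genes -0.00, and setting *MAM3* to its bound given below does not move the members' median, since it stays the lowest value. The called counts thus lay near the background shares. Without *ubp12/13* replicate 1, 12 of the 19 members that passed the adjusted p still did, without *ubp12/13* replicate 3 it was 13, and it was 14 to 17 without any other library of the pair, with no change of direction among these 19.

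**Figure D1:**
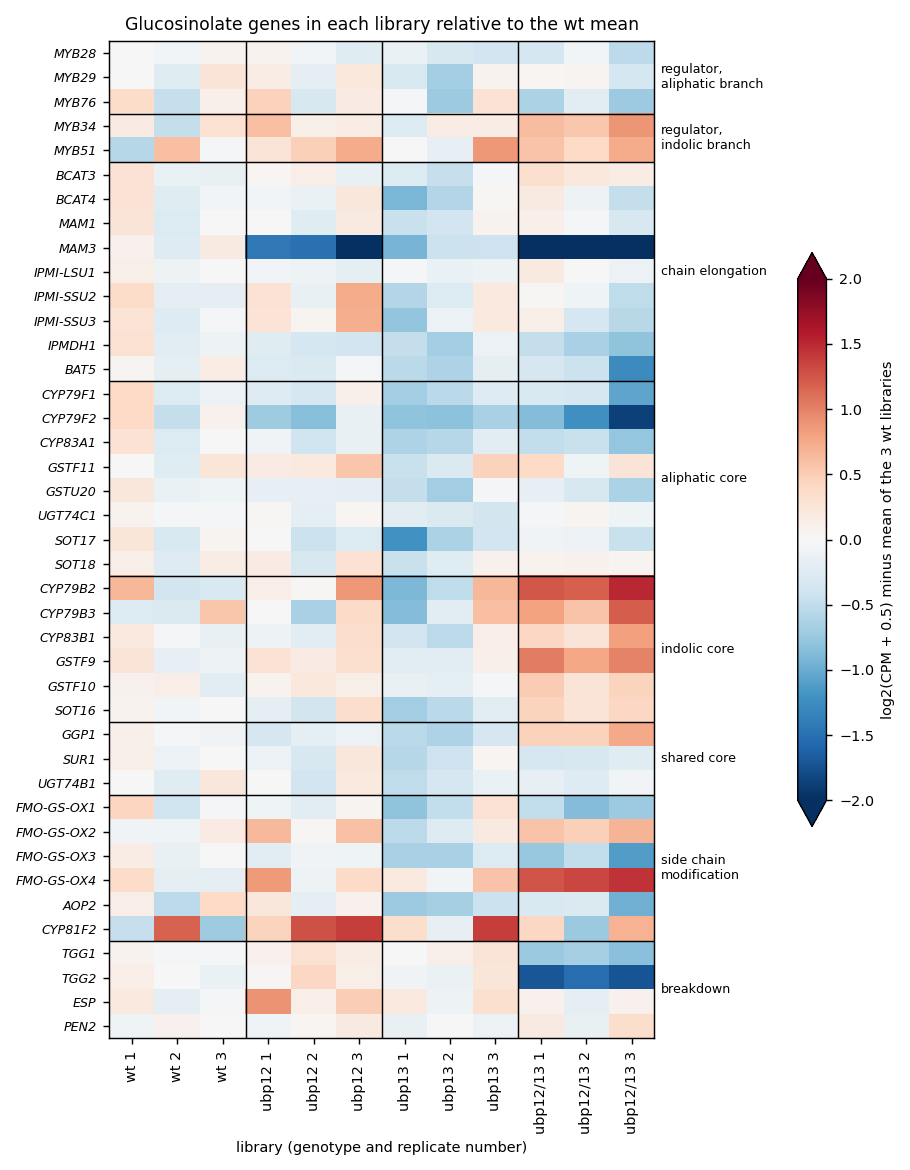
Heat map of the 41 tested members (one in each line, ordered by role) in the 12 libraries, coloured by log2(CPM + 0.5) minus the mean of the 3 wt libraries, with colours ending at -2 and 2. The 6 indolic core genes are red in the 3 *ubp12/13* libraries, *TGG2* and *MAM3* are dark blue there, and *ubp13* replicate 3 is redder than the other *ubp13* libraries over most lines.

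The regulators of the aliphatic branch did not pass the test in *ubp12/13*. *MYB28* (AT5G61420), the main activator of aliphatic genes, had 39.8, 38.4 and 41.9 CPM in the wt replicates 1, 2 and 3, 42.2, 38.6 and 33.9 CPM in *ubp12*, 36.3, 31.8 and 30.6 CPM in *ubp13* and 31.3, 38.4 and 27.8 CPM in *ubp12/13*. All 3 *ubp12/13* libraries lay below the wt libraries, replicate 2 by a small margin, and overlapped those of both single mutants (log2FC -0.30 ± 0.12 (SE), adjusted p = 0.0990). *MYB29* (AT5G07690), which acts with it, had 12.7, 10.8 and 15.4 CPM in wt, 14.2, 11.3 and 14.9 CPM in *ubp12*, 10.2, 7.82 and 13.5 CPM in *ubp13* and 13.2, 13.4 and 9.98 CPM in *ubp12/13*. Its genotypes overlapped (log2FC -0.08 ± 0.17, adjusted p = 0.762), and with library totals in place of TMM the value was 0.08. *MYB76* (AT5G07700), the weakest of the tested regulators by level, had 20, 8 and 11 counts in wt, 21, 10 and 12 in *ubp12*, 18, 9 and 20 in *ubp13* and 11, 22 and 10 in *ubp12/13*, or 2.18, 1.00 and 1.72 CPM in wt against 0.831, 1.30 and 0.756 CPM in *ubp12/13*. At this depth a difference was not detectable (log2FC -0.74 ± 0.37, adjusted p = 0.163). With counts thinned by a random draw to the smallest library the value was -1.66 (adjusted p = 0.0269), and the spread between such draws was not tested.

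Among the regulators of the indolic branch, 1 of the 2 tested passed the adjusted p in *ubp12/13*. *MYB34* (AT5G60890), an activator of the tryptophan-derived branch, had 12.1, 7.63 and 13.5 CPM in wt, 16.5, 11.7 and 12.0 CPM in *ubp12*, 8.79, 12.0 and 12.0 CPM in *ubp13* and 16.9, 15.8 and 20.2 CPM in *ubp12/13*. The *ubp12/13* libraries were above all wt libraries, and the lowest of them was just under the highest *ubp12* library. The change of 0.68 ± 0.20 on the log2 scale passed the adjusted p (0.0302) but not the fold minimum. The adjusted p of *MYB34* was 0.0528 to 0.0844 without wt replicate 1 or 2 or *ubp12/13* replicate 1 or 3, and 0.113 against *ubp12*. *MYB51* (AT1G18570), the other expressed activator of this branch, had 8.27, 19.3 and 12.4 CPM in wt, 15.1, 17.7 and 21.4 CPM in *ubp12*, 12.7, 11.1 and 23.4 CPM in *ubp13* and 18.9, 16.7 and 21.4 CPM in *ubp12/13*. Here wt replicate 2 lay within the *ubp12/13* range (log2FC 0.51 ± 0.26, adjusted p = 0.162).

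In the indolic core, 6 of 6 genes passed the adjusted p upwards in *ubp12/13*, with a median log2FC of 0.68, and each had all 3 *ubp12/13* libraries above all wt libraries, beside 16.0% and 23.6% of all genes. The count that passed was 2 without *ubp12/13* replicate 1, 3 without *ubp12/13* replicate 3 or wt replicate 2, 4 without wt replicate 3, 5 without wt replicate 1 and 6 without *ubp12/13* replicate 2. It was 3 when all 12 libraries shared a common fit, and the log2FC of each of the 6 genes was above 0 in each of these fits. With library totals in place of TMM, which moved the median of all genes to 0.15, 6 of 6 passed. *CYP79B2* (AT4G39950) had 20.1, 9.51 and 10.03 CPM in wt, 13.7, 12.6 and 23.3 CPM in *ubp12*, 6.48, 8.58 and 19.9 CPM in *ubp13* and 30.1, 29.1 and 36.3 CPM in *ubp12/13*. The *ubp12/13* libraries were the highest 3 of 12, at 2.41 times the wt mean (log2FC 1.24 ± 0.25, adjusted p = 0.00667), and the gene was called. *GSTF9* (AT2G30860), a glutathione transferase placed in this branch, had 370, 277 and 289 CPM in wt, 379, 345 and 385 CPM in *ubp12*, 264, 266 and 334 CPM in *ubp13* and 627, 529 and 617 CPM in *ubp12/13*. Again the *ubp12/13* libraries stood above the other 9, at 1.89 times the wt mean (log2FC 0.92 ± 0.13, adjusted p = 0.00109). The changes of the other members were 0.86 ± 0.25 for *CYP79B3* (adjusted p = 0.0288), 0.51 ± 0.15 for *CYP83B1* (AT4G31500), which oxidizes the aldoxime (adjusted p = 0.0356), 0.40 ± 0.11 for *GSTF10* (adjusted p = 0.0281) and 0.37 ± 0.09 for the sulfotransferase gene *SOT16* (adjusted p = 0.0135). *CYP79B3* did not pass without wt replicate 1 or 2 or *ubp12/13* replicate 1 or 3 (adjusted p 0.0681 to 0.105). Of the 6 fits with a library left out, *CYP83B1* did not pass in 4, *GSTF10* in 3 and *SOT16* in 2.

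Core enzymes that serve both branches did not move alike. *GGP1* (AT4G30530), whose product cleaves the glutamyl group from the glutathione conjugate, had 74.1, 67.9 and 66.2 CPM in wt, 54.7, 60.9 and 63.5 CPM in *ubp12*, 47.3, 45.0 and 54.8 CPM in *ubp13* and 96.0, 95.8 and 118 CPM in *ubp12/13*. The libraries of both single mutants lay below wt and those of *ubp12/13* above it. *GGP1* rose by 0.57 ± 0.11 on the log2 scale in *ubp12/13* (adjusted p = 0.00451), while its log2FC in *ubp12* (-0.22 ± 0.10, adjusted p = 0.325) and in *ubp13* (-0.50 ± 0.11, adjusted p = 0.663) did not pass. *SUR1* (AT2G20610), the C-S lyase gene, fell by 0.30 on the log2 scale in *ubp12/13* (SE 0.09, adjusted p = 0.0315), and *UGT74B1* (AT1G24100), the glucosyltransferase gene, had a log2FC of -0.17 ± 0.12 (adjusted p = 0.343). *SUR1* no longer passed without wt replicate 1 or 3 or *ubp12/13* replicate 1 or 2 (adjusted p 0.0624 to 0.119).

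In chain elongation, which lengthens methionine before it enters the core, the change was strongest for *MAM3*. Its product is a methylthioalkylmalate synthase needed for long-chain aliphatic glucosinolates. *MAM3* (AT5G23020) had 3.81, 2.88 and 4.08 CPM in wt, 1.01, 0.934 and 0.456 CPM in *ubp12*, 1.62, 2.52 and 2.54 CPM in *ubp13* and 0.151, 0 and 0.227 CPM in *ubp12/13*, the last being 2, 0 and 3 counts. The 4 genotypes did not overlap, in the order wt, *ubp13*, *ubp12* and *ubp12/13*. Against a floor of 3 counts per library, the *ubp12/13* level was at least 17.1-fold lower than in wt (edgeR adjusted p = 0.000324). *MAM3* was also called lower in *ubp12* (log2FC -2.09 ± 0.33, adjusted p = 0.0129), a call that was lost without wt replicate 3, without *ubp12* replicate 1 or without *ubp12* replicate 3 (adjusted p 0.0504 to 0.0551, with log2FC from -2.28 to -1.86).

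Of the other chain elongation genes, 1 passed. *IPMDH1* (AT5G14200), an isopropylmalate dehydrogenase gene, fell by 0.67 on the log2 scale (SE 0.15, adjusted p = 0.00967), and it is the member with the highest share of words found elsewhere. The remaining 7 of the 9 genes did not pass, with values from -0.65 for *BAT5* (AT4G12030), a plastid transporter gene (adjusted p = 0.0678), to 0.21 for *BCAT3* (adjusted p = 0.250). *MAM1* (AT5G23010), the neighbour of *MAM3* and the synthase gene for shorter chains, had a log2FC of -0.09 ± 0.15 (adjusted p = 0.706) and 110 ± 19.6 CPM in wt against 103 ± 15.1 CPM in *ubp12/13* (SD, n = 3).

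In the aliphatic core, 2 of 8 genes passed, both downwards, beside 15.1% of all genes, and the median log2FC was -0.30. *CYP79F2* (AT1G16400), which acts on long-chain methionine derivatives, had 8.48, 4.38 and 6.74 CPM in wt, 3.69, 3.27 and 5.62 CPM in *ubp12*, 3.41, 3.36 and 3.87 CPM in *ubp13* and 3.25, 2.41 and 1.36 CPM in *ubp12/13*. The *ubp12/13* libraries were the lowest 3 of 12, though replicate 1 was only just below the lowest *ubp12* library, and the mean was 2.79-fold lower than in wt (log2FC -1.48 ± 0.33, adjusted p = 0.0101). Its neighbour *CYP79F1* (AT1G16410), which handles short and long chains, had a log2FC of -0.56 ± 0.23 (adjusted p = 0.0956), with 54.9 ± 14.2 CPM in wt and 37.2 ± 10.05 CPM in *ubp12/13* (SD, n = 3). *CYP83A1* (AT4G13770), the next enzyme gene of this branch, fell by 0.59 on the log2 scale (SE 0.15, adjusted p = 0.0200), and did not pass without wt replicate 1 or *ubp12/13* replicate 1 or 3 (adjusted p 0.0509 to 0.0590). The other 5 genes, which encode glutathione transferases, a glucosyltransferase and sulfotransferases, ranged from -0.37 for *GSTU20* (adjusted p = 0.0800) to 0.21 for *GSTF11* (adjusted p = 0.471). Reads of *GSTF11* cannot be told apart from those of the antisense gene that overlaps it.

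The *FMO-GS-OX* genes encode flavin monooxygenases that S-oxygenate the aliphatic side chain. The 4 of them on the member list split in *ubp12/13*, with 2 passing the adjusted p upwards and 2 downwards, beside 16.0% and 15.1% of all genes. A further gene of this family is among the other pathway genes counted below. *FMO-GS-OX4* (AT1G62570) had 3.92, 2.50 and 2.51 CPM in wt, 5.70, 2.68 and 3.95 CPM in *ubp12*, 3.41, 2.78 and 4.58 CPM in *ubp13* and 7.71, 8.12 and 8.85 CPM in *ubp12/13*. The *ubp12/13* libraries exceeded the other 9, at 2.76 times the wt mean (log2FC 1.44 ± 0.20, adjusted p = 0.00100), and the gene was called. *FMO-GS-OX2* (AT1G62540) also rose (log2FC 0.61 ± 0.13, adjusted p = 0.00919), whereas *FMO-GS-OX1* (AT1G65860) fell by 0.79 (SE 0.23, adjusted p = 0.0292) and *FMO-GS-OX3* (AT1G62560), which lies between the 2 genes that rose, fell by 0.80 on the log2 scale (SE 0.18, adjusted p = 0.00986). These directions were the same with RLE size factors, library totals and DESeq2, but *FMO-GS-OX1* no longer passed when any of 4 libraries was left out (wt replicates 1 or 3, *ubp12/13* replicates 2 or 3, adjusted p up to 0.104). With *ubp12* as the control in place of wt, *FMO-GS-OX2* did not pass (adjusted p = 0.605). With *ubp13* as the control, *FMO-GS-OX1* and *FMO-GS-OX3* did not pass (adjusted p up to 0.332). The directions were the same with both controls. *AOP2* (AT4G03060), which is annotated as a transcribed pseudogene by RefSeq, had a log2FC of -0.56 ± 0.28 (adjusted p = 0.160). *CYP81F2* (AT5G57220), whose product hydroxylates indole glucosinolates, varied widely within wt, with 1.96, 7.13 and 1.57 CPM, and a difference was not detectable (log2FC -0.07 ± 0.59, adjusted p = 0.947).

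**Figure D2:**
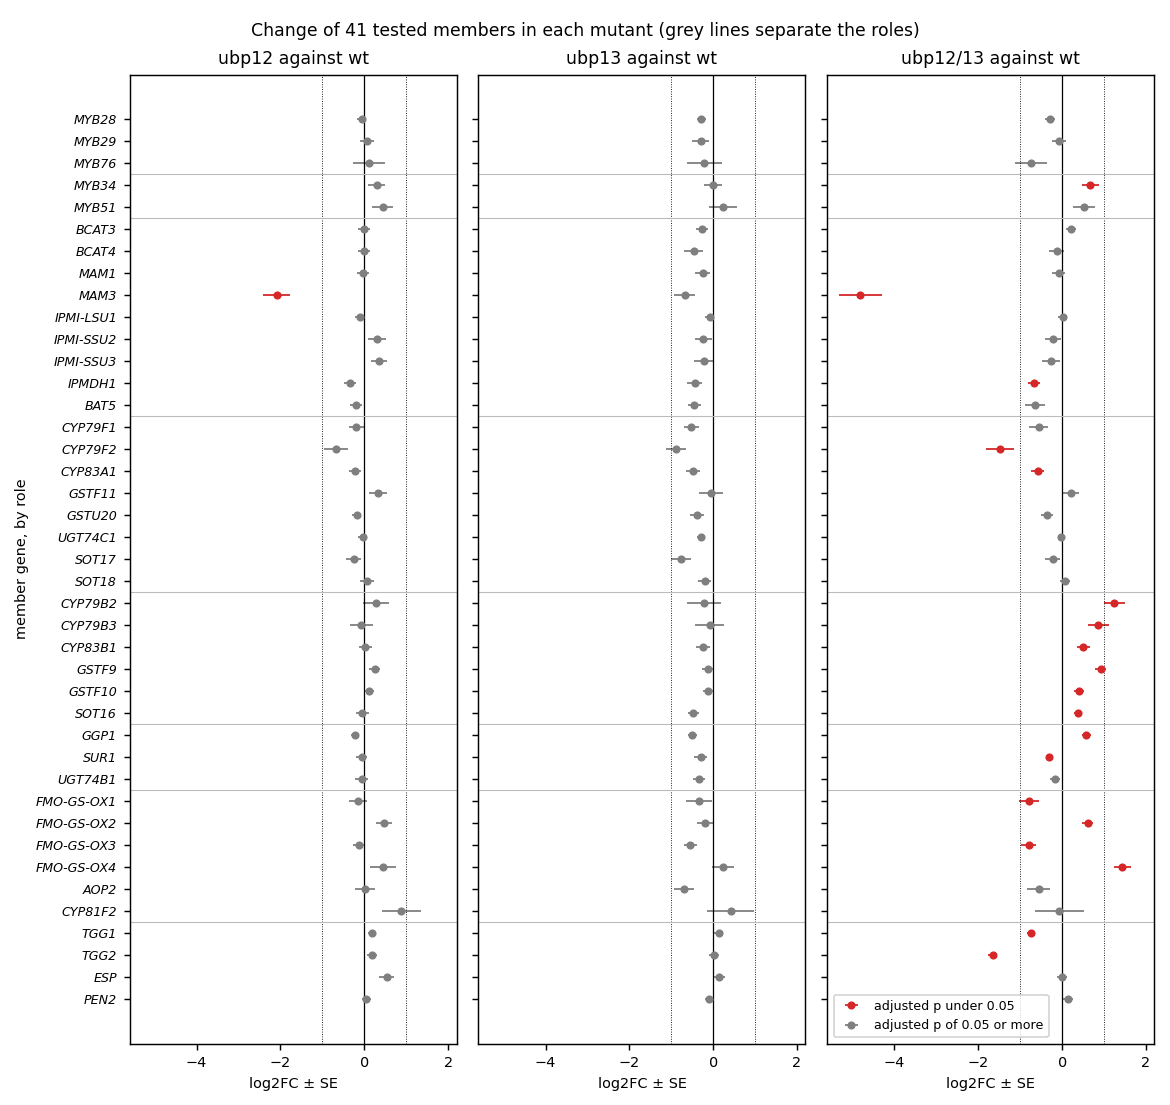
Change of each tested member (log2FC with its SE as the bar) in *ubp12*, *ubp13* and *ubp12/13* against wt, by role, with red points for an adjusted p under 0.05 and dotted lines at log2FC -1 and 1. In *ubp12* only *MAM3* is red, in *ubp13* no member is, and in *ubp12/13* 10 members are red to the right of 0 and 9 to the left.

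Both classical myrosinase genes fell in *ubp12/13*. *TGG1* (AT5G26000) had 2470, 2285 and 2281 CPM in wt, 2501, 2881 and 2599 CPM in *ubp12*, 2355, 2538 and 2792 CPM in *ubp13* and 1395, 1476 and 1309 CPM in *ubp12/13*. *TGG2* (AT5G25980) had 803, 735 and 664 CPM in wt, 743, 975 and 791 CPM in *ubp12*, 697, 668 and 865 CPM in *ubp13* and 223, 254 and 220 CPM in *ubp12/13*. For both genes the *ubp12/13* libraries were far below the other 9, and while the other genotypes overlapped for *TGG2*, the *ubp12* libraries lay above wt for *TGG1*. *TGG1* fell by 0.75 on the log2 scale (SE 0.08, adjusted p = 0.000383), a 1.68-fold lower mean that missed the fold minimum, and *TGG2* fell by 1.66 (SE 0.10, adjusted p = 3.77e-05), a 3.16-fold lower mean. *ESP* (AT1G54040), whose product diverts breakdown towards nitriles, and *PEN2* (AT2G44490), an atypical myrosinase gene of pathogen defence, had log2FC of -0.01 ± 0.12 (adjusted p = 0.953) and 0.13 ± 0.13 (adjusted p = 0.463).

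*TGG1* and *TGG2* are known as genes of guard cells and of myrosin cells along the veins. The 6 guard cell markers summed to 57.4 to 71.7 CPM in *ubp12/13* and to 78.6 to 89.3 CPM in the other libraries, ranges that do not overlap. Of these 6 markers, 5 had a log2FC below 0 in *ubp12/13* against wt and 1 of them passed the adjusted p, with a median of -0.38, and none was at 0 CPM. The part of guard cell or mesophyll content in the fall of *TGG1* and *TGG2* was not tested.

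**Figure D3:**
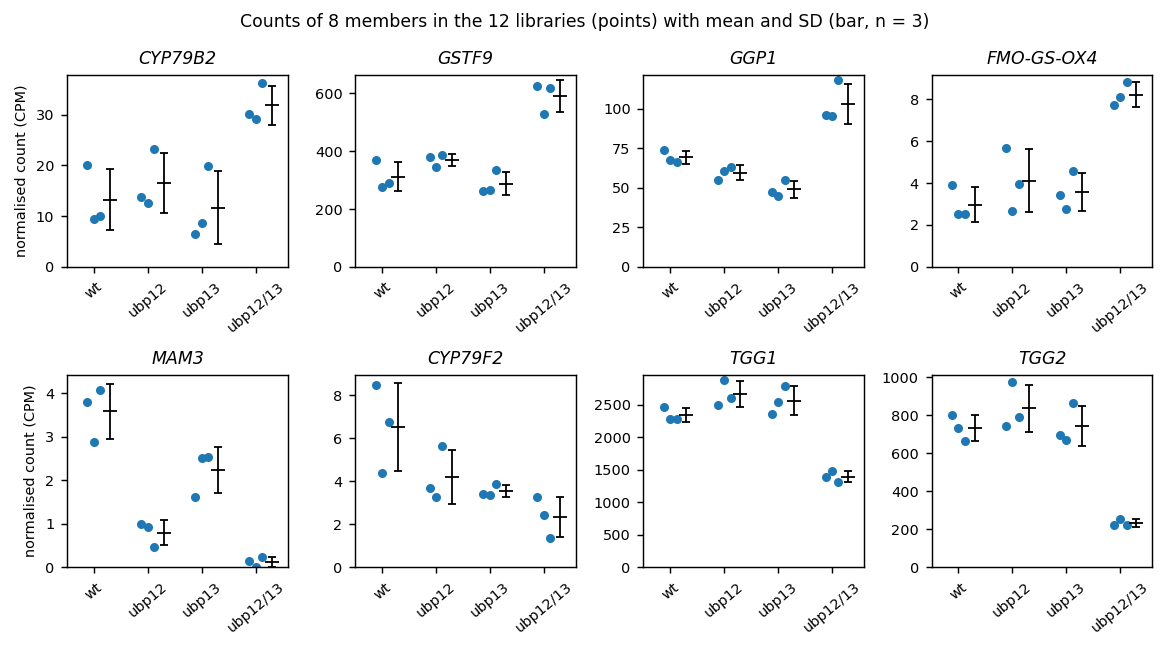
Normalised counts (CPM, linear axis from 0) of 8 members in the 12 libraries by genotype, with points for replicates 1 to 3 from left to right and the mean with SD (n = 3) beside them. *CYP79B2*, *GSTF9*, *GGP1* and *FMO-GS-OX4* have their highest 3 libraries in *ubp12/13*, and *MAM3*, *CYP79F2*, *TGG1* and *TGG2* their lowest 3.

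The single mutants showed few changes in the pathway. In *ubp12*, 0 of 41 members were called higher and 1, *MAM3*, lower, beside 0.469% and 0.215% of the 17712 genes tested, and the median log2FC was -0.00. Without wt replicate 2, *CYP81F2* was called higher as well. In the libraries labelled *ubp13*, edgeR called 0 members in either direction, beside 0.0227% and 0.00568% of 17615 genes, and DESeq2 called 0 as well, while 14 members had an unadjusted p under 0.05, beside 6.26% of all genes. In these libraries 35 of 41 members had a log2FC below 0, with a median of -0.26, and 8 members had all 3 libraries below all wt libraries, beside 5.57% of all genes. The lowest adjusted p of a member was 0.663.

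Many members were high or low together in the same library. Among the wt libraries, replicate 1 was the highest for 26 of 41 members and replicate 2 the lowest for 31, and of the 22 tested enzymes of the aliphatic branch, replicate 2 was the lowest for 20. Within *ubp13*, replicate 3 was the highest for 36 of 41 members, with a median deviation of 0.27 from the *ubp13* mean on the log2 scale, and for 6 of 6 indolic core genes. In *ubp12/13*, replicate 3 was the lowest of the 3 for 17 of 22 aliphatic enzymes and not the lowest for any of the 6 indolic core genes, of which replicate 2 was the lowest for 6. Without *ubp13* replicate 3, the median log2FC of the members in *ubp13* was -0.47.

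Since all comparisons above share the wt libraries, *ubp12/13* was also set against each single mutant, a comparison added after the data had been seen. Against *ubp12*, 6 members passed the adjusted p upwards and 7 downwards of 40 tested, beside 13.0% and 13.5% of all genes. Against *ubp13*, 11 passed upwards and 3 downwards of 41, beside 16.6% and 16.4%. Of the 6 indolic core genes, 4 passed upwards against *ubp12*, without *CYP83B1* and *SOT16* (adjusted p up to 0.107). Against *ubp13* it was 5, without *CYP79B3* (adjusted p = 0.0577), and the log2FC of all 6 was above 0 in both comparisons. *TGG2* was called lower in both (log2FC -1.85 ± 0.12 and -1.68 ± 0.12), *CYP79B2* had a log2FC of 0.96 ± 0.21 against *ubp12* (adjusted p = 0.0113) and 1.46 ± 0.34 against *ubp13* (adjusted p = 0.0116), and *GSTF9* of 0.67 ± 0.09 (adjusted p = 0.00145) and 1.03 ± 0.12 (adjusted p = 0.000513). By contrast, *CYP79F2* did not pass against *ubp12* (-0.82 ± 0.33, adjusted p = 0.105) or *ubp13* (-0.60 ± 0.29, adjusted p = 0.143).

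Whether *ubp12/13* differed from the added effects of both single mutants was tested as the log2FC of *ubp12/13* minus those of *ubp12* and *ubp13*, over all 12 libraries. Of 41 members, 1 was called above the sum and 2 below it, beside 3.23% and 3.14% of the 18212 genes tested, and 3 and 2 passed the adjusted p alone, beside 6.83% and 7.57%. *GGP1* was above the sum by 1.29 ± 0.15 on the log2 scale (adjusted p = 0.000150), with a mean below wt in each single mutant and above wt in *ubp12/13*. *TGG2* fell by 1.87 more than the sum (SE 0.18, adjusted p = 4.07e-05) and *TGG1* by 1.06 more (SE 0.13, adjusted p = 0.000181), the latter just at the fold minimum: it was -0.999 without *ubp12* replicate 2, -0.994 without *ubp13* replicate 3 and -0.851 with library totals. *GSTF9* (0.79 ± 0.18, adjusted p = 0.00978) and *SOT16* (0.89 ± 0.23, adjusted p = 0.0197) passed without reaching the fold minimum. For *MAM3* the value was -2.03 ± 0.72 (adjusted p = 0.0778), and with *ubp12/13* at the floor this value is no bound. Without *ubp13* replicate 3, 5 members were called (*CYP79B2*, *CYP79B3* (AT2G22330), *GGP1* and *SOT16* above the sum, *TGG2* below it).

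Other genes of the pathway were counted from a list of 32 genes for regulation, modification, transport and breakdown, of which 23 were tested in *ubp12/13* against wt. Of these, 10 passed the adjusted p upwards and 1 downwards, beside 16.0% and 15.1% of all genes, and 6 were called higher and 1 lower, beside 5.94% and 4.02%. The median log2FC was 0.18. *IGMT5*, a methyltransferase gene of indole glucosinolates, rose from 2.83 ± 0.28 CPM in wt to 11.4 ± 1.43 CPM (log2FC 2.02 ± 0.17, adjusted p = 0.000111). *MYC2*, a jasmonate-responsive bHLH factor that acts with the MYB regulators, rose by 1.85 ± 0.21 (adjusted p = 0.000408), and *GTR1*, a glucosinolate importer gene, by 1.79 ± 0.18 (adjusted p = 0.000281). *GSL-OH*, whose product hydroxylates an alkenyl side chain, rose by 1.22 ± 0.09 (adjusted p = 7.65e-05), and *CYP81F3*, a relative of *CYP81F2*, fell by 1.43 (SE 0.30, adjusted p = 0.00829), each on the log2 scale. Of 9 genes for sulfur reduction, PAPS and glutathione supply, 3 passed upwards and 0 downwards, beside 16.0% and 15.1% of all genes, and 1 was called, beside 5.94% called higher. It was *APR3*, an adenosine phosphosulfate reductase gene (log2FC 1.54 ± 0.12, adjusted p = 7.43e-05).

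Peaks of H2Aub1 increase in *ubp12/13* overlapped the 1 kb after the gene start in 4 of 43 members (9.30%), and in 3.58% of 27444 protein-coding genes. The deposited set holds 1285 peaks merged over replicates, so that no replicate error comes with a peak. The members were *MYB51*, with a peak on chromosome 1 from 6389388 to 6391209 that begins 11 bp before the gene start and ends 1810 bp after it, *BCAT4* (chromosome 3, 6846969 to 6848924), *MAM1* (chromosome 5, 7703111 to 7703783) and *FMO-GS-OX2* (chromosome 1, 23151655 to 23152517). In RNA, *FMO-GS-OX2* was the gene of these 4 that passed the test, with the increase given above, and *BCAT4* (AT3G19710) had a log2FC of -0.13 ± 0.19 (adjusted p = 0.624). None of the 5 members called in *ubp12/13* had such a peak, also when the gene body and 2 kb upstream were searched, which added *UGT74B1*. With an overlap of at least 500 bp required in the first 1 kb, 3 members (6.98%) were left, without *BCAT4*, beside 3.07% of protein-coding genes. The set holds increases alone, and the paper reports that more genes lost H2Aub1 than gained it. A member without a peak is thus not shown to be unchanged. The leaves used for ChIP-seq and the seedlings used for RNA-seq differ in age and harvest time.

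**Figure D4:**
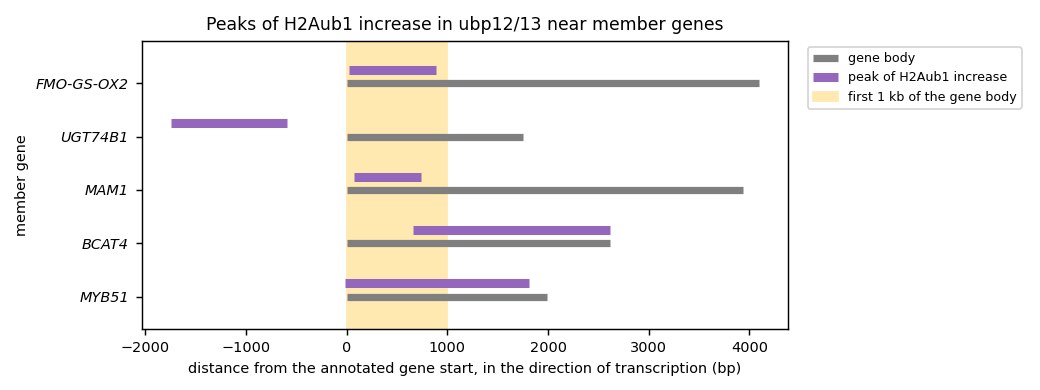
Peaks of H2Aub1 increase (purple) near member genes, drawn to scale as distance in bp from the annotated gene start in the direction of transcription, with gene bodies in grey and the first 1 kb shaded. In *MYB51*, *MAM1* and *FMO-GS-OX2* the peak begins within 70 bp of the start, in *BCAT4* it begins 658 bp after the start and ends with the gene body, and in *UGT74B1* it lies from -1744 to -590 bp on this axis.

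Promoters (250 bases before to 50 after the gene start) were searched on both strands for CACGTG, the G-box that MYC factors bind, for ACCTAAC, a form of the AC element of R2R3 MYB factors, and for the motif of the histone demethylase REF6 (CTCTGCTC, CTCTGCTT, CTCTGTTC or CTCTGTTT). None of these words contains another. CACGTG was in 6 of 43 member promoters (14.0%) and in 7.68% of 27443 promoters, ACCTAAC in 3 (6.98%) and 2.88%, and the REF6 motif in 2 (4.65%) and 7.87%. In the 250 bases before the start alone, CACGTG was in 3 member promoters (6.98%) and in 6.49% of all promoters, so its higher share depends on the window. None of the 6 indolic core genes and none of the 5 called members held any of these letters in the window. The 250 bases before the start for 3 genes that passed downwards in *ubp12/13* and hold a match there are given with the matching letters in capitals, 5′ to 3′ on the coding strand (GTTAGGT is ACCTAAC read on the other strand). SUR1 is at chr2:8880441-8880690, CYP83A1 at chr4:7992430-7992679 and FMO-GS-OX1 at chr1:24502777-24503026, all on the minus strand of RefSeq TAIR10.1.
SUR1: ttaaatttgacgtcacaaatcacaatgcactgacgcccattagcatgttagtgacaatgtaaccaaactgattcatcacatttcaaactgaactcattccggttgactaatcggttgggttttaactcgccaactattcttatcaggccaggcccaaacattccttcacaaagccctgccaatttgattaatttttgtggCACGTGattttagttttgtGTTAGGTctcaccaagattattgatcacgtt
CYP83A1: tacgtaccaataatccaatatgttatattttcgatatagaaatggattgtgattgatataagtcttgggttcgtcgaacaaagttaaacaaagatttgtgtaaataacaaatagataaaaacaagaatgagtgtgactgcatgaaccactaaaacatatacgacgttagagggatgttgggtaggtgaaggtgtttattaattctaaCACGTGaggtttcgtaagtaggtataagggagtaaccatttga
FMO-GS-OX1: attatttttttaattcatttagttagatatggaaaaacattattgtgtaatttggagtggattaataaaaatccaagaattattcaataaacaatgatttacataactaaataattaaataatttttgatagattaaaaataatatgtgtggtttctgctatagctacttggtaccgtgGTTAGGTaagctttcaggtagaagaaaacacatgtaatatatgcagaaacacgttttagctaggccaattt

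In *SUR1* the G-box lies 50 to 45 bases before the start and the AC element 31 to 25 bases before it, in *CYP83A1* the G-box lies 43 to 38 bases before the start, and in *FMO-GS-OX1* the AC element lies 71 to 65 bases before it. A match in letters is a description and does not show binding.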

How the data were processed

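The authors trimmed 50-bp single-end reads with cutadapt 1.18, mapped them to TAIR10 with tophat, kept reads on nuclear chromosomes with a length and a mapping quality above a minimum, and counted them per gene with HTSeq 0.11.1. The values analysed are the raw counts as the authors deposited them, not normalised and not pooled. Counts on organellar genes remain in them (0.268% to 6.15% of a library), although the paper describes using only nuclear reads. The H2Aub1 values are positions of merged peaks, and the score column that the authors deposited beside them was not used. The other ChIP-seq data were not analysed here.

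Libraries were grouped by the labelled genotype. Of the 33602 gene IDs, 279 organellar IDs were left out. Differences between a mutant and wt were fitted by edgeR 4.0.16 under R 4.3.3 (TMM, quasi-likelihood test, Benjamini-Hochberg adjustment over the genes for which 2 or more libraries of the pair exceeded a CPM of 1), and each adjusted p printed comes from it unless DESeq2 is named. The contrast with the sum of the single mutants used all 12 libraries. The study tested with DESeq2, here DESeq2 1.42.0 was an alternative. A group with 3 counts or fewer in every library was set to a floor of 3 counts for folds. The study calls the libraries biological replicates, and p-values measure the spread between them. Peaks and promoters were compared with the RefSeq TAIR10.1 annotation, whose nuclear chromosomes match TAIR10, in Python with pandas, and promoters were read from that genome. The members and lists were chosen with earlier results of these data known. Values in every library are printed for the MYB regulators, *TGG1*, *TGG2*, each called member and the member with the next lowest adjusted p, and up to 6 other pathway genes that were called are named by size of change, while the remaining members are given by values or ranges. Alternatives were other size factors, DESeq2, other filters, a common fit, the replicate number as a block, thinned counts, no fold minimum, organellar genes kept, each library left out, and other peak and promoter windows. The single mutants as controls were an alternative chosen after seeing the data. The scripts were tested on simulated counts with known changes. Of changes of 1 on the log2 scale, 84% to 94% passed the adjusted p in the comparisons with wt and 59% against the sum. Of changes of 2, 99% to 100% passed. Few calls against the sum therefore do not show that the effects add up.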

Additional observations from a re-analysis of the deposited data

Results flagged for a closer look

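The difference between *ubp12/13* and the added effects of *ubp12* and *ubp13* passed its test and the fold minimum for 3 members, each value being a log2 difference over all 12 libraries. It was 1.29 for *GGP1*, -1.06 for *TGG1* and -1.87 for *TGG2*. The wt mean of *GGP1* was 69.4 CPM, with 59.7 CPM for *ubp12*, 49.1 CPM for *ubp13* and 103 CPM for *ubp12/13*. For *TGG1* the means were 2345, 2660, 2561 and 1393 CPM, and for *TGG2* 734, 836, 743 and 233 CPM, in the same order of genotypes.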

How the results depend on the processing

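The number of members called in *ubp12/13* against wt was 5. It was 19 without a fold minimum and 1 (*TGG2*) with the *ubp12* libraries as control, and lay between 4 and 7 in the other 16 alternatives. The median log2FC of the members in *ubp12/13* was 0.072 with library totals, which set the median of all genes to 0.15, and 0.16 with the *ubp13* libraries as control. In *ubp12*, no member (0) was called with CPM over 1 required in all libraries, where *MAM3* is not tested, and 0 to 2 with a library left out. The median in *ubp13* ranged from -0.47 to -0.14 with a library left out. Against the sum of the single mutants, 5 members were called without a fold minimum and 2 to 5 with a library left out. The CACGTG motif was in 3 member promoters (6.98%) when the 250 bases before the start were searched alone, beside 6.49% of 27443 promoters. *MYB29* had a log2FC in *ubp12/13* of 0.078 with library totals, 0.22 with the *ubp13* libraries as control and -0.20 to 0.051 with a library left out. The causes of these shifts were not tested, apart from the untested gene and the shorter window.

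The replicate numbers share no stated batch. Deviations of same-numbered libraries from their group means correlated from -0.16 to -0.05 between wt and *ubp12/13*, -0.04 to -0.00 between wt and *ubp12*, -0.10 to 0.12 between wt and *ubp13*, 0.11 to 0.23 between *ubp12* and *ubp13*, 0.04 to 0.31 between *ubp12* and *ubp12/13* and 0.01 to 0.26 between *ubp13* and *ubp12/13*. Since no comparison with wt had each pair over 0.1, the numbers were not taken to pair the libraries, although 8 of 12 libraries were on average closest to their own number. With the replicate number as a block, 5 members were called in *ubp12/13*, 1 in *ubp12*, 0 in *ubp13* and 4 against the sum, which adds *CYP79B3*, and 4 of 6 indolic core genes passed the adjusted p, without *CYP83B1* and *GSTF10*. Low counts limit *MYB76*, *MAM3* and *CYP81F2*, and 3 libraries per genotype limit each comparison.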
